A study of Mus musculus with 6 samples.

Results

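Cells remove surplus cholesterol through membrane transporters, and 9 genes of that system, the liver X receptors (LXR), their sterol exporters and other LXR targets, were followed in livers of mice with an intestinal deletion of Mttp. The genes were chosen by name, with no threshold on these measurements although earlier results of them were known, and all 9 of them were found among the 40481 genes of the deposited table. They were the sterol exporters Abcg5, Abcg8, Abca1 and Abcg1, the receptors Nr1h3 and Nr1h2, and the targets Lpcat3, Mylip and Pltp. RNA-Seq of whole liver was carried out on 3 control pools and 3 *Mttp-IKO* pools, each combining liver RNA of 3 to 4 mice.

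All mice were young adult males on a C57BL/6 background, carried floxed alleles of Mttp and a tamoxifen-inducible Villin-Cre, ate a diet lacking methionine and choline (MCD diet) for 3 weeks, and were fasted for 4 hours before the liver was taken. *Mttp-IKO* mice had received tamoxifen, which deletes Mttp, the microsomal lipid transfer protein needed to assemble chylomicrons, in cells that use the Villin promoter, chiefly the intestinal epithelium. Controls were littermates given vehicle and are labelled wild type in the sample records, so deletion and exposure to tamoxifen cannot be told apart. Liver Mttp, which this Cre does not target, was 150.4 ± 52.2 CPM (counts relative to the library total; SD, n = 3 pools) in controls and 145 ± 16.0 CPM in *Mttp-IKO* (log2 fold change -0.06, edgeR adjusted p = 0.926). The targeted gene therefore does not check the labels in this tissue.

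LXR-alpha (Nr1h3) and LXR-beta (Nr1h2) are nuclear receptors that bind oxysterols, the oxidized forms of cholesterol, and switch on genes as pairs with a retinoid X receptor. In hepatocytes their targets Abcg5 and Abcg8 encode half-transporters that join into one pump at the bile canaliculus, where it exports cholesterol and plant sterols into bile. Abca1 loads cholesterol and phospholipid onto lipid-poor apolipoprotein A-I and Abcg1 passes cholesterol to mature HDL, and both are best known from lipid-laden macrophages, although hepatocytes also express Abca1 and make much of the HDL in plasma.

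The promoters are shown because one annotated start of Abcg8 lies next to that of Abcg5 and the values of both genes are compared below with those of Abca1. The sequences are RefSeq windows on GRCm38.p6 of 300 bases, from 250 bases before the annotated start to 50 after it, written on the gene's own strand. Such a window was found for 8 of the 9 genes. The Abcg5 window is chr17:84682962-84683261 on the minus strand, with matches of GATAA, the core letters recognized by GATA factors, in capitals (TTATC where the match is on the other strand). The Abca1 window is chr4:53159846-53160145 on the minus strand, with capitals marking a repeat of the half-site GGTNA with 5 letters between its copies, searched on both strands, which is the core of the element bound by LXR with its partner.
Abcg5: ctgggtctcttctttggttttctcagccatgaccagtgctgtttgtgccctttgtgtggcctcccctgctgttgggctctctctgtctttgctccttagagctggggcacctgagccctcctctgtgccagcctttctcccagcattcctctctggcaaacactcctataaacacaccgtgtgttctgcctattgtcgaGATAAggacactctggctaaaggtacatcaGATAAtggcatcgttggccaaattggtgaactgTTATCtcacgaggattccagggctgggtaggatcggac
Abca1: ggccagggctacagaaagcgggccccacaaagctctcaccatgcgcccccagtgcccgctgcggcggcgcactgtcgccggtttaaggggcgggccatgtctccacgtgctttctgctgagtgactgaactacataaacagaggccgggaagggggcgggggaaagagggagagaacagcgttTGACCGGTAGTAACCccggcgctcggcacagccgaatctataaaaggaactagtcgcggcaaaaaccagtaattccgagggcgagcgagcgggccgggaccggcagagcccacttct
The RefSeq windows cover 2 starts of Abcg8, of which one lay 110 bases from that of Abcg5, head to head, so that its window, chr17:84682871-84683170 on the plus strand, shared 209 bases with that of Abcg5. The other start, at 84676302, lies within the Abcg5 gene, and its window, chr17:84676052-84676351, held no match of GATAA. This motif occurred 3 times in the window of Abcg5 and 3 times in the overlapping one of Abcg8, all within the shared stretch, while 25.4% of 32851 promoter windows held at least 1 match and 0.938% held 3 or more. The half-site repeat was matched once, in Abca1, beginning 67 bases before the start, and in 0.718% of all windows. No match of either motif overlapped one of the other, and a match is a description of the letters, not evidence of binding.

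The pools held 25271585 to 36238734 reads on genes, and a count of 0 would allow up to 0.0828 to 0.119 CPM by counting error alone, far below any of the 9 genes. *Mttp-IKO* pool 3 stood apart in its makeup, with 0.289% of reads on small RNAs against 1.92 to 3.51% in the other pools, and 1.70% against 3.62 to 3.84% on mRNAs of 300 to 1000 nucleotides. Control pool 2 and, to a lesser degree, control pool 1 held striated muscle mRNAs. Their marker sum was 633 CPM in control pool 2, 75.97 CPM in control pool 1 and 0.545 to 1.22 CPM in the other pools. Summed markers of hepatocytes were at 53620 to 86380 CPM in controls and 106522 to 154509 CPM in *Mttp-IKO*, and none of the 10 was at 0 in all pools of a group. In whole liver, fewer cells of a type and less RNA per cell cannot be told apart.

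Of the 9 genes, 0 passed an adjusted p of 0.05 in edgeR's quasi-likelihood test of *Mttp-IKO* against control, where 4.01% of 17287 genes did (0.920% higher and 3.09% lower in *Mttp-IKO*). The same test gave 3 of the 9 an unadjusted p under 0.05, against 23.0% of all genes. Those were Abcg5 and Abcg8, with higher estimates in *Mttp-IKO*, and Abcg1, with a lower one. DESeq2 called 2 of the 9, Abcg5 and Abcg1, where it called 11.5% of all genes, and limma-voom called 0 of the 9 and 2.48% of all. Of the 9 genes, 1 was called with scaling to total counts (5.89% of all genes), 2 without a filter on low counts (3.56%), 2 at an adjusted p under 0.1 (9.59%), 2 without control pool 2 (5.02%) and 1 with the replicate number as a block (3.42%). The pools of the groups did not overlap for 3 of the 9 genes, Abcg5 (higher), Abcg1 and Nr1h3 (both lower), where 31.0% of all genes did not overlap (14.5% higher and 16.5% lower). Over the 9 genes 5 estimates were higher and 4 lower, with a median log2 fold change of 0.07, and the median size of 0.32 was like the 0.33 of all genes tested. In these measures the group was close to all genes.

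**Figure D1:**
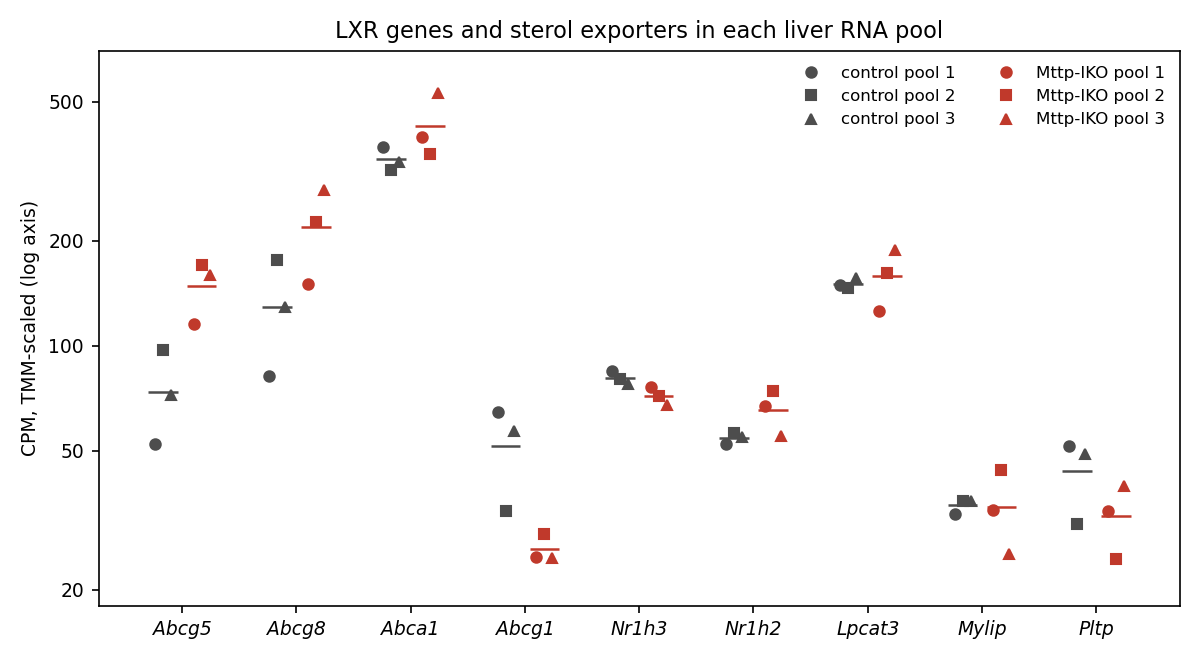
CPM of the 9 genes (vertical axis, log scale, scaled by TMM) in the 3 control and 3 *Mttp-IKO* pools, with 1 point per pool and a horizontal line at the group mean. The points of the groups are apart for Abcg5 (control up to 97.3 CPM, *Mttp-IKO* from 116 CPM), Abcg1 (control from 33.5 CPM, *Mttp-IKO* up to 28.8 CPM) and Nr1h3, and overlap for the other 6 genes.

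Abcg5 (ENSMUSG00000040505, chromosome 17, 84658234 to 84683011, minus strand) encodes a subunit of the biliary sterol pump. It was at 52.2, 97.3 and 72.2 CPM in control pools 1 to 3 and at 116, 169.8 and 159.8 CPM in *Mttp-IKO* pools 1 to 3. Every *Mttp-IKO* pool was above every control pool, with control pool 2 the highest of its group and *Mttp-IKO* pool 1 the lowest of its group. The means were 73.9 ± 22.6 and 148 ± 28.9 CPM, a 2.01-fold difference with a 95% interval of 1.33 to 3.03 (log2 1.01, SE 0.26). The unadjusted p was 0.00451 and the edgeR adjusted p 0.0718, and an exact two-sided permutation test gave p = 0.1, the smallest that 3 pools against 3 allow. Leaving out control pool 2 brought the edgeR adjusted p to 0.0414, and leaving out control pool 3 to 0.251.

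Abcg8 (ENSMUSG00000024254, chromosome 17, 84676302 to 84700333, plus strand), which encodes the partner subunit, was at 81.7, 176 and 129 CPM in the control pools and at 149.8, 227 and 280.0 CPM in the *Mttp-IKO* pools. The groups overlapped, since control pool 2 lay above *Mttp-IKO* pool 1. Means of 128.7 ± 47.0 and 219 ± 65.5 CPM gave a 1.70-fold difference with an interval of 1.02 to 2.84 (log2 0.77, SE 0.32, edgeR adjusted p = 0.206). The estimate fell to 0.50 on the log2 scale without control pool 1. Within the controls both half-transporters were lowest in pool 1 and highest in pool 2. Per kilobase, Abcg5 stood to Abcg8 as 0.883, 0.765 and 0.775 in control pools and as 1.07, 1.03 and 0.789 in *Mttp-IKO* pools. The groups overlapped in this ratio, although *Mttp-IKO* pools 1 and 2 were above every control pool. The exons of Abcg5 and Abcg8 share 82 bases on opposite strands (3.02% of Abcg5 and 2.19% of Abcg8), where reads counted without strand could not be separated.

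Hepatocyte markers varied in the same direction as the half-transporters. Their sum was 53620, 86380 and 69426 CPM in control pools 1 to 3 and 114537, 154509 and 106522 CPM in *Mttp-IKO* pools, dominated by albumin, and 5 of the 10 markers lay higher without overlap, 1 lower, while 0 passed edgeR's adjusted test and 5 had an unadjusted p under 0.05, all higher. Relative to that sum the Abcg5 level was 0.000973 to 0.00113 in controls and 0.00101 to 0.00150 in *Mttp-IKO*. Relative to Hnf4a, a transcription factor of hepatocytes, Abcg5 was at 0.0926 to 0.142 and 0.121 to 0.141 and Abcg8 at 0.145 to 0.256 and 0.173 to 0.212. All of these ratios overlapped between the groups. The part of hepatocyte content in the higher levels was not tested.

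Abca1 (ENSMUSG00000015243, chromosome 4, 53030787 to 53159895, minus strand) was at 372, 319.7 and 335 CPM in control pools and at 396, 355 and 531 CPM in *Mttp-IKO* pools. The groups overlapped, and most of the difference came from *Mttp-IKO* pool 3. The means were 342 ± 26.6 and 427 ± 92.0 CPM (log2 fold change 0.32, 95% interval -0.14 to 0.78, edgeR adjusted p = 0.379), and without *Mttp-IKO* pool 3 the estimate was 0.14. Neither a decrease of more than 0.14 nor an increase above 0.78 on the log2 scale lay within the interval. *Mttp-IKO* pool 3 was also short of reads on mRNAs of 300 to 1000 nucleotides, while Abca1 has 10363 exonic bases. Over the alternatives, which include removal of a length trend, the estimate stayed within 0.14 to 0.44. The part of that makeup in the level of Abca1 was not tested.

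Abcg1 (ENSMUSG00000024030, chromosome 17, 31057698 to 31115777, plus strand) had the opposite direction. Its levels in control pools 1 to 3 were 64.5, 33.5 and 57.1 CPM, and those in *Mttp-IKO* pools 1 to 3 were 24.8, 28.8 and 24.6 CPM. Every *Mttp-IKO* pool was below every control pool, and control pool 2 was the closest to the *Mttp-IKO* range. Means of 51.7 ± 16.2 and 26.1 ± 2.39 CPM differed 1.98-fold (log2 -0.99, SE 0.24, 95% interval -1.55 to -0.43, unadjusted p = 0.00350, edgeR adjusted p = 0.0645, exact two-sided permutation p = 0.1). Without control pool 2 the edgeR adjusted p was 0.0135, and without control pool 3 it was 0.221. The spread between pools also differed, with a coefficient of variation of 31.3% in controls and 9.18% in *Mttp-IKO*, whereas that of Abca1 was 7.77% in controls and 21.5% in *Mttp-IKO*.

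Markers of recruited macrophages and of stellate cells or myofibroblasts were lower in *Mttp-IKO*, as Abcg1 was. The summed markers of recruited macrophages were 1361, 482 and 1403 CPM in control pools 1 to 3 and 230.0, 293 and 251 CPM in *Mttp-IKO* pools, with 7 of the 11 genes lower at an adjusted p under 0.05 in edgeR's test. Those of stellate cells or myofibroblasts spanned 884 to 1567 CPM and 474 to 529.8 CPM, with 6 of 10 lower. In both lists control pool 2, the control pool lowest in Abcg1, had the lowest sum among controls. Kupffer cell markers overlapped, at 626 to 963 CPM and 456 to 930.4 CPM with 1 of 11 called, the resident macrophage marker Timd4, which was higher. At an unadjusted p under 0.05 there were 7 of these 11, 3 higher and 4 lower, and the median log2 fold change of the list was -0.28. Endothelial markers were at 593 to 666 CPM and 565 to 635 CPM with 0 of 10 called in edgeR's test, also at an unadjusted p under 0.05, and no marker of these 4 lists was at 0 in all pools of a group.

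Set against these sums, the direction for Abcg1 depended on the cell type taken as reference. Abcg1 per unit of recruited macrophage markers was 0.0474, 0.0695 and 0.0407 in control pools and 0.108, 0.0985 and 0.0978 in *Mttp-IKO* pools, 1.98-fold higher without overlap, so Abcg1 was lower by less than those markers were. Against markers of stellate cells or myofibroblasts Abcg1 was also higher without overlap, at 0.0379 to 0.0435 in controls and 0.0464 to 0.0555 in *Mttp-IKO*. Against endothelial markers it was lower without overlap, at 0.0504 to 0.109 in controls and 0.0387 to 0.0479 in *Mttp-IKO*, and against Kupffer cell markers the groups overlapped. Abca1 did not share the course of Abcg1. Its groups overlapped, and it was highest in *Mttp-IKO* pool 3, the pool that stood apart in its makeup. The part of any of these cell types in the levels of Abcg1 and Abca1 was not tested.

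The comparison of canalicular with HDL-directed export was made within each pool from levels per kilobase (RPKM), as a ratio with no test. The summed level of Abcg5 and Abcg8 over that of Abca1 and Abcg1 was 0.794, 2.12 and 1.31 in control pools and 1.86, 2.98 and 2.33 in *Mttp-IKO* pools. The groups overlapped, as control pool 2 exceeded *Mttp-IKO* pool 1, and the mean ratio was 1.80-fold higher in *Mttp-IKO* (log2 0.38 ± 0.71 against 1.23 ± 0.34, a difference of 0.85). The difference was 0.49 without control pool 1, the pool with the lowest ratio.

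Splitting the denominator separated its genes. With Abca1 alone below the line, the ratio was 1.15, 2.68 and 1.88 in control pools and 2.16, 3.59 and 2.61 in *Mttp-IKO* pools, with overlap. With Abcg1 alone it was 2.59, 10.03 and 4.34 in control pools and 13.5, 17.4 and 22.1 in *Mttp-IKO* pools, 3.59-fold higher without overlap. The ratio of Abca1 to Abcg1 was itself 2.26, 3.74 and 2.30 in control pools and 6.26, 4.83 and 8.47 in *Mttp-IKO* pools, 2.36-fold higher without overlap. The 2 exporters grouped as macrophage-type thus had different courses in these livers, and the contrast with the half-transporters was one with Abcg1 more than with Abca1.

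**Figure D2:**
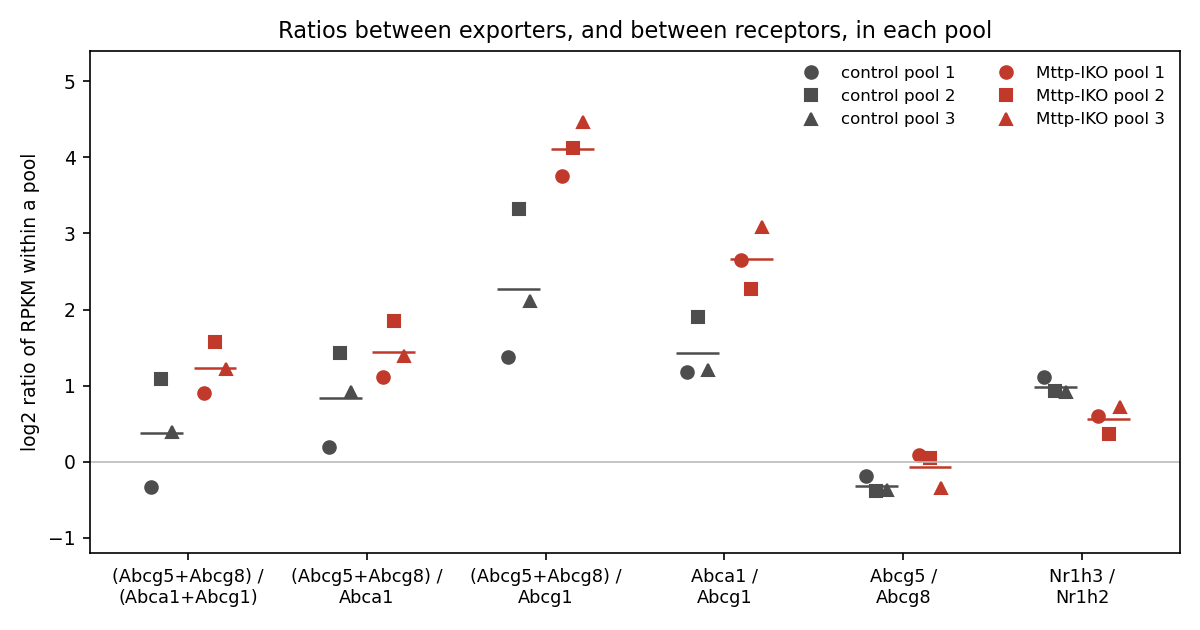
Ratios of expression per kilobase within each pool (vertical axis, log2 of the RPKM ratio) for the sterol exporters and the receptors, with 1 point per pool and a line at the group mean. The summed half-transporters over Abca1 and Abcg1 overlap between groups, while Abca1 over Abcg1 runs from 2.26 to 3.74 in controls and from 4.83 to 8.47 in *Mttp-IKO* before the log.

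The receptors differed little. Nr1h3, the LXR form abundant in liver (ENSMUSG00000002108, chromosome 2, 91184061 to 91202834, minus strand), was at 84.4, 80.5 and 77.6 CPM in control pools and at 76.2, 71.7 and 67.8 CPM in *Mttp-IKO* pools. Every *Mttp-IKO* pool was lower, but the difference was small, with means of 80.8 ± 3.45 and 71.9 ± 4.196 CPM (log2 -0.17, 95% interval -0.48 to 0.15, edgeR adjusted p = 0.499). Nr1h2, the form made in most tissues (ENSMUSG00000060601, chromosome 7, 44549616 to 44553951, minus strand), was at 52.4, 56.4 and 54.9 CPM and at 67.0, 74.2 and 55.0 CPM.

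Its values in *Mttp-IKO* pools 1 and 2 were above all controls and pool 3 was level with them (54.6 ± 2.01 and 65.4 ± 9.69 CPM, log2 0.26, 95% interval -0.10 to 0.62, edgeR adjusted p = 0.357). Per kilobase, Nr1h3 over Nr1h2 was 2.16, 1.91 and 1.89 in control pools and 1.52, 1.29 and 1.65 in *Mttp-IKO* pools. This ratio was lower in every *Mttp-IKO* pool (log2 0.99 ± 0.11 against 0.57 ± 0.18), with LXR-alpha the more abundant receptor mRNA in all 6.

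Among the remaining targets, Lpcat3, which inserts polyunsaturated acyl chains into phospholipids (ENSMUSG00000004270, chromosome 6, 124663027 to 124704418, plus strand), was at 149.7, 146 and 156 CPM in control pools and at 125, 162 and 188 CPM in *Mttp-IKO* pools. Mylip, also called IDOL, a ubiquitin ligase (ENSMUSG00000038175, chromosome 13, 45389742 to 45412019, plus strand), was at 33.0, 35.8 and 35.9 CPM and at 33.8, 44.0 and 25.3 CPM. Both were tight in controls and spread out in *Mttp-IKO*, where their coefficients of variation were 19.9% and 27.2% against 3.23% and 4.76%. Their estimates were close to 0, at log2 0.07 for Lpcat3 (95% interval -0.35 to 0.50, edgeR adjusted p = 0.847) and -0.02 for Mylip (95% interval -0.49 to 0.46, edgeR adjusted p = 0.967). Both changed sign without *Mttp-IKO* pool 3, to -0.07 and 0.16, and Lpcat3 also with scaling to total counts, to -0.11.

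Pltp, the phospholipid transfer protein that remodels HDL (ENSMUSG00000017754, chromosome 2, 164839518 to 164857711, minus strand), was at 51.6, 30.9 and 49.0 CPM in control pools and at 33.5, 24.5 and 39.7 CPM in *Mttp-IKO* pools. The groups overlapped, and control pool 2 was below the other controls and 2 of the *Mttp-IKO* pools (43.9 ± 11.3 and 32.6 ± 7.66 CPM, log2 -0.43, 95% interval -1.004 to 0.14, edgeR adjusted p = 0.340). Of its 2562 exonic bases 495 (19.3%) also belong to Ctsa on the opposite strand, so its counts are uncertain if strand was not used.

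**Figure D3:**
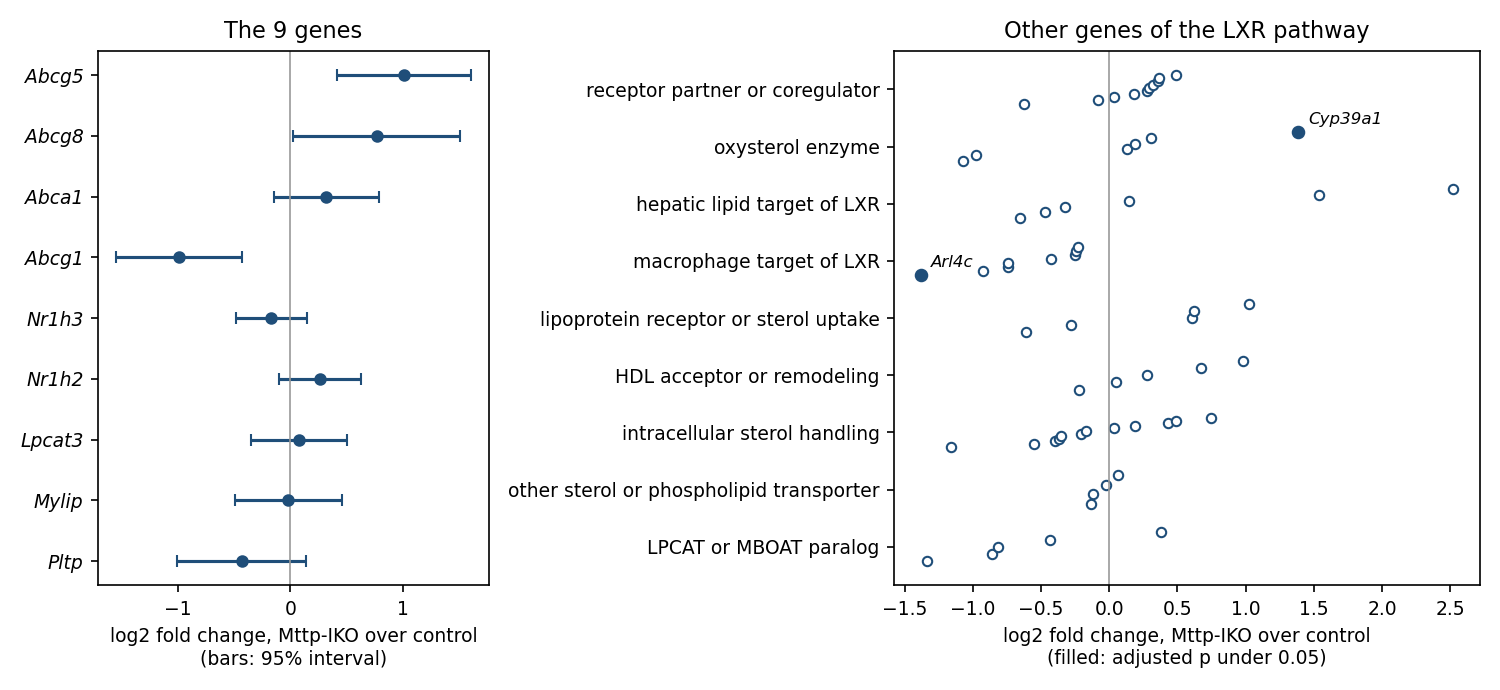
Log2 fold change of *Mttp-IKO* against control (horizontal axes) for the 9 genes with 95% intervals (left) and for 61 other genes of the LXR and sterol pathway by role (right). On the right, filled symbols mark an adjusted p under 0.05, and only Cyp39a1 and Arl4c are filled. On the left all 9 symbols are filled without this meaning, and 0 of these genes passed 0.05. Those of Abcg5 (1.01) and Abcg1 (-0.99) lie farthest from 0.

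The levels per kilobase give the order of the genes within a group. In controls it was Lpcat3 (46.1 RPKM), Abcg8 (34.3), Abca1 (33.0), Nr1h3 (32.1), Abcg5 (27.2), Pltp (17.1), Nr1h2 (16.2), Abcg1 (12.7) and Mylip (11.4), and each neighbouring pair overlapped between pools. In *Mttp-IKO* it was Abcg8 (58.4 RPKM), Abcg5 (54.7), Lpcat3 (48.5), Abca1 (41.2), Nr1h3 (28.6), Nr1h2 (19.4), Pltp (12.7), Mylip (11.2) and Abcg1 (6.41). The half-transporters headed this order, while in controls Lpcat3 stood above both, and Abcg1 came last. In the *Mttp-IKO* order the pools did not overlap between Abca1 and Nr1h3, Nr1h3 and Nr1h2, Nr1h2 and Pltp, or Mylip and Abcg1, and overlapped between the other neighbours.

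The genes with the most similar course over the 6 pools were sought among 8902 protein-coding genes with a mean log2 CPM of at least 3, by the root mean square difference in centred log2 CPM. For Abcg5 they were Plg (0.101), Slc43a1 (0.115) and Il6ra (0.126), with Abcg8 at 0.196 in 26th place. For Abcg8 they were Mcc (0.0389), Slc27a5 (0.121) and Slc43a1 (0.149). For Abca1 they were Afdn (0.0239), Rapgef2 (0.0338) and Arnt (0.0414), while Abcg8 was at 0.505 and Abcg1 at 0.703.

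Abcg1 was most like Vav1 (0.0651), Psap (0.0664) and Mpeg1 (0.0990), of which Vav1 and Mpeg1 are known from blood cells and macrophages and Psap from lysosomes. The closest of the other 8 genes was Pltp at 0.382. Abca1 and Abcg1 therefore had separate courses by this measure too, a description of 6 pools that share one design.

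**Figure D4:**
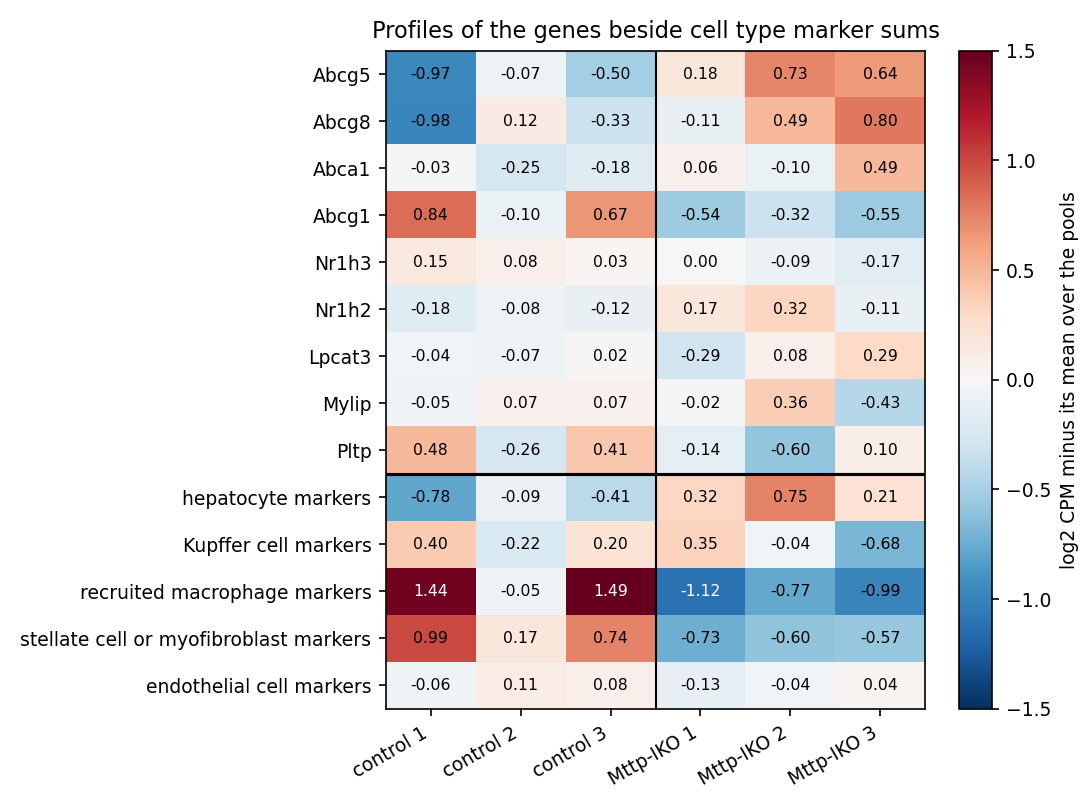
Courses of the 9 genes and of 5 sums of cell type markers over the 6 pools, drawn as log2 CPM minus the mean over all pools (color scale, log2 units). Abcg5 and Abcg8 are below their means in controls 1 and 3 and above them in *Mttp-IKO* 2 and 3, and Abcg1 and recruited macrophage markers are above theirs in controls 1 and 3 and below them in all *Mttp-IKO* pools.

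Outside the 9 genes, 63 further genes of LXR signaling and sterol handling were examined, of which 61 were expressed highly enough to test (Abcg4 and Mboat2 were not). One rose and one fell at an adjusted p under 0.05, 3.28% of those tested against 4.01% of all genes, and 29 estimates were higher and 32 lower with a median of -0.08. At an unadjusted p under 0.05 there were 18 of the 61, 9 in each direction, against 23.0% of all genes, and DESeq2 called 10, where it called 11.5% of all genes. The groups did not overlap for 32.8% of them, against 31.0% of all genes.

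Cyp39a1, a hepatic enzyme that hydroxylates oxysterols on the way to bile acids, rose from 59.2, 81.1 and 67.0 CPM in the controls to 173, 180.5 and 187 CPM in *Mttp-IKO* pools. This was a 2.61-fold increase with tight pools in both groups (log2 1.38, SE 0.17, edgeR adjusted p = 0.0159). Cyp39a1 was no longer called without control pool 1, control pool 3 or *Mttp-IKO* pool 2, where its edgeR adjusted p rose to at most 0.0914. The other oxysterol enzymes were not called. Cyp27a1, which makes 27-hydroxycholesterol, was at 179.7 ± 40.4 and 222 ± 54.0 CPM (edgeR adjusted p = 0.498), and Cyp7b1 rested on *Mttp-IKO* pool 3, at 75.4 CPM against 12.4 and 13.8 CPM in the other *Mttp-IKO* pools and 29.7 ± 7.92 CPM in controls.

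Arl4c, a small GTPase and LXR target studied in macrophages, fell from 8.53, 7.71 and 9.68 CPM in the controls to 3.64, 3.43 and 2.85 CPM in *Mttp-IKO* pools (log2 -1.38, SE 0.20, edgeR adjusted p = 0.0186). Without control pool 1, control pool 3, *Mttp-IKO* pool 1 or *Mttp-IKO* pool 2 its adjusted p was 0.0613 to 0.0998. All 8 LXR targets known from macrophages had lower estimates, with a median of -0.58 against 0.006 for all genes tested. The groups did not overlap for 2 of the 8 (25%, against 31.0% of all genes), and only Arl4c was called. Apoe, the most abundant of them, was at 16803 ± 1085 and 14198 ± 5401 CPM (log2 -0.24, edgeR adjusted p = 0.702) and its sign changed to 0.04 without *Mttp-IKO* pool 3. Apoc1 was at 1327 ± 130 and 794 ± 364 CPM (edgeR adjusted p = 0.265), with *Mttp-IKO* pool 3 at 375 CPM against 976 and 1030 CPM in the other *Mttp-IKO* pools. The 8 genes share their direction with the recruited macrophage markers given above, and the part of those cells in their levels was not tested.

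Of the lipid synthesis targets of hepatocytes, 3 of 6 estimates were higher and 3 lower, with 0 called. Scd1, which desaturates fatty acids, was at 342 ± 151 and 1964 ± 1906 CPM (edgeR adjusted p = 0.0761) and Fasn, the fatty acid synthase, at 457 ± 196 and 1330.5 ± 524 CPM (edgeR adjusted p = 0.0673), both without overlap but with wide spread. The mean of Scd1 rested on *Mttp-IKO* pool 3, at 4165 CPM against 813 and 915 CPM in the other *Mttp-IKO* pools, and its log2 fold change of 2.52 was 1.34 without that pool. Among the lipoprotein receptor and uptake genes 0 of 5 were called. The HDL receptor Scarb1 was at 241, 205 and 228 CPM in controls and 344, 396 and 299.7 CPM in *Mttp-IKO* (log2 0.62, edgeR adjusted p = 0.0912), with every *Mttp-IKO* pool above every control pool.

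Of the genes that supply and load HDL, 4 of 5 estimates were above 0, 1 of 5 did not overlap and 0 were called. Apoa1, the acceptor of ABCA1, was at 5595 ± 1131 and 11051 ± 4326 CPM with overlap (log2 0.98, edgeR adjusted p = 0.153), and Lcat, which esterifies cholesterol on HDL, was at 264 ± 55.6 and 421 ± 84.1 CPM without overlap (log2 0.67, edgeR adjusted p = 0.132). Receptor partners and coregulators had 8 of 10 estimates higher with 0 called. The most abundant, Rxra, the partner of the LXRs, was at 532 ± 23.0 and 681 ± 155 CPM with overlap, and the corepressor Ncor1 at 211 ± 5.10 and 297 ± 61.5 CPM without it (edgeR adjusted p = 0.349 and 0.175).

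The other canalicular transporters examined here, Abcb11, Abcb4 and Atp8b1, had estimates near 0. Abcb11, the bile salt export pump, had a log2 fold change of -0.13 and Abcb4, which exports phosphatidylcholine, one of -0.12 (edgeR adjusted p = 0.672 and 0.764). Atp8b1, a lipid flippase of the canaliculus, was at 0.06 (edgeR adjusted p = 0.867), which turned to -0.12 with scaling to total counts.

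Intracellular sterol genes were mixed, with 5 of 12 estimates higher and 0 called. Soat2, the cholesterol esterifying enzyme of hepatocytes, was at 50.2 ± 9.66 and 70.5 ± 6.75 CPM without overlap (edgeR adjusted p = 0.158), and the lysosomal lipase Lipa at 279.5 ± 35.1 and 216 ± 22.7 CPM (edgeR adjusted p = 0.256). Soat1, a relative of Soat2, had the lowest adjusted p of the 12 and was lower in *Mttp-IKO* without overlap. It was at 46.4 ± 16.2 and 20.8 ± 3.07 CPM (log2 -1.16, edgeR adjusted p = 0.0592). Among the relatives of Lpcat3, 4 of 5 estimates were lower with 0 called, and the lowest adjusted p was that of Lpcat1, an acyltransferase for saturated chains, at 10.4 ± 1.77 and 5.75 ± 0.56 CPM (log2 -0.86, SE 0.20, edgeR adjusted p = 0.0538). Lpcat1 passed the threshold without control pool 2 (edgeR adjusted p = 0.0444) and with DESeq2 (adjusted p = 0.00639).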

How the data were processed

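RNA-Seq of liver RNA was analysed in 3 control and 3 *Mttp-IKO* pools, grouped by their labels. Ribosomal RNA had been depleted. The authors aligned reads with STAR 2.5.1a to GRCm38 and with featureCounts 1.4.6-p5 assigned to genes only reads with a single alignment in a single gene, per the labels and the article. Whether strand was used is not given in the sources used here. The deposited files hold the read count of 41388 genes per pool, and the authors' CPM and RPKM, which follow from these counts. A deposited table of all pools gave the same counts for 40481 genes after 276 repeated lines were dropped.

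Genes were kept by edgeR's filterByExpr (minimum count 10, minimum total 15), which left 17287, scaled by TMM (factors 0.898 to 1.11), and compared with edgeR 4.0.16 (glmQLFit and glmQLFTest, R 4.3.3) at a Benjamini-Hochberg adjusted p of 0.05 over all genes tested. The article names no tool for this test. CPM and RPKM printed here use the TMM scaling. The tests were also run on simulated counts. Their planted changes were larger than the estimates of Abcg5 and Abcg1, and effects of single pools were left out. The simulation therefore cannot show how the tests perform with smaller changes or with such effects. A replicate is a pool, so p-values measure the spread between pools, not between mice.

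The 9 genes and all lists were chosen with earlier results of these data known. Named were the 9 genes, called genes of the pathway list, up to 3 genes of highest mean RPKM in each role group, and up to 3 genes of closest course for each exporter. Timd4, Soat1, Abcg4 and Mboat2 were named after their values were seen. Alternatives were DESeq2 1.42.0, limma-voom (limma 3.58.1), total count and other scalings, other filters and thresholds, a replicate block, removal of a length trend, and leaving out each pool. Some items of the pathway list are not reported here.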

Additional observations from a re-analysis of the deposited data

How the results depend on the processing

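Of 595 alternative fits of 35 named genes, 547 kept direction and side of the threshold, 26 passed it in addition, 7 no longer passed it and 15 changed direction. Genes called over the whole table numbered 694, and 1995 with DESeq2, 428 with limma-voom and 1658 at an adjusted p under 0.1. Leaving out a pool gave 0 (without *Mttp-IKO* pool 2, with 3221 at an unadjusted p under 0.05 in edgeR's test) to 892 (without control pool 2). Scaling to total counts shifted the median of all genes by -0.18 (log2) and gave 112 higher and 907 lower calls, against 159 and 535.

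Of the 9 genes 0 were called, and 1 with total counts (Abcg1), 2 with DESeq2, 2 without a filter and 2 at an adjusted p under 0.1 (Abcg1 and Abcg5 in each), and 0 to 2 when a pool was left out. Over the alternatives the edgeR, DESeq2 or limma adjusted p spanned 0.00609 to 0.251 for Abcg5 and 0.00765 to 0.221 for Abcg1, whose log2 fold changes stayed within 0.79 to 1.23 and -1.24 to -0.82. Lpcat1 passed the threshold in 7 of 17 alternatives, with adjusted p from 0.00639 (DESeq2) to 0.205. Of the pathway genes 2 were called, and 4 with total counts, 10 with DESeq2, 5 without a filter, 4 with the length trend removed, 7 at an adjusted p under 0.1, and 0 to 6 without a pool. The exporter ratio difference of 0.85 was 0.49 to 1.202 without a pool, 0.70 from CPM and 0.49 for Abcg8 over Abca1.

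With the replicate number as a block, 592 genes were called in all, 1 of the 9 (Abcg5, edgeR adjusted p = 0.0376) and 4 of the pathway genes. Deviations of equally numbered pools correlated at 0.139, 0.112 and 0.00698, and *Mttp-IKO* pool 3 was closest to control pool 2 (0.0208), so the numbers were not taken as a pairing.

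Direction changed, on the log2 scale, for Lpcat3 with total counts (-0.11), Mylip with the length trend removed (0.016), Cyp7b1 with limma-voom (-0.34) and the block (-0.33), and Atp8b1 with total counts (-0.12). When a pool was left out, the lowest and highest values were -0.066 (without *Mttp-IKO* pool 3) and 0.22 for Lpcat3, -0.24 and 0.16 (without *Mttp-IKO* pool 3) for Mylip, -1.18 (without *Mttp-IKO* pool 3) and 0.58 for Cyp7b1, -0.46 and 0.042 (without *Mttp-IKO* pool 3) for Apoe, -0.60 and 0.086 (without control pool 1) for Vldlr, -0.62 and 0.12 (without *Mttp-IKO* pool 3) for Apoa2, -0.32 and 0.013 (without *Mttp-IKO* pool 2) for Abcb4, and -0.11 (without *Mttp-IKO* pool 1) and 0.16 for Atp8b1. Cyp7b1 also changed sign without control pool 1 (-0.036) and Atp8b1 without control pool 2 (-0.011). The causes were not tested.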

Other observations

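Among the marker lists not described above, the lowest adjusted p in edgeR's test was 0.0653, that of the B cell gene Cd79b. Cholangiocyte markers summed to 98.1 to 217 CPM in controls and 73.3 to 125 CPM in *Mttp-IKO*, T cell markers to 6.46 to 12.6 and 3.52 to 6.80 CPM, and B cell markers to 10.2 to 24.3 and 4.03 to 7.99 CPM, the last without overlap. Neutrophil markers summed to 3.33 to 11.3 and 3.60 to 11.0 CPM, with Ly6g at 0 in all control pools. Small intestine markers summed to 1269 to 2434 CPM in controls and 803 to 2911 CPM in *Mttp-IKO*, with overlap. Of these 8 genes 4 were expressed highly enough to test and 0 were called. In this list the brush border enzyme Sis was at 0 in all *Mttp-IKO* pools.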
